A study of Homo sapiens with 18 samples.

Results

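Interleukins are small secreted proteins through which immune cells instruct each other, and 8 interleukin genes were followed here in chronic lymphocytic leukemia (CLL) cell lines stimulated through Toll-like receptor 9 (TLR9). The genes were IL6, IL10, EBI3, IL12A, IL15, IL16, IL32 and IL1B, which were found by their symbols and are 8 of the 56609 gene symbols in the count table. They were chosen as interleukins with earlier results of these data known. All 8 had at least 10 reads summed over the 18 libraries and were tested together with the other genes that reached this sum, 31872 in all.

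HG3, MEC2 and PCL12 are established, EBV-positive B cell lines derived from CLL, and the study gives the immunoglobulin heavy variable genes as mutated in MEC2 but unmutated in the other lines. Each line was sequenced as 3 libraries of cells given CpG-ODN2006, a synthetic TLR9 agonist, at 2.5 µg/ml for 4 h, and as 3 libraries of unstimulated cells. No genetic change was introduced, all groups share growth in RPMI medium with fetal bovine serum, and each line stands for a single leukemia. The labels do not say whether the samples of a line came from separate cultures, so that P values measure the spread between these samples, which may be technical. Per the series description, the replicate number pairs a stimulated with an unstimulated sample. The main test did not use this pairing, and values with the replicate number as a block are given for part of the genes. The P values of the block rest on a spread shared over genes, not on that of the single gene.

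The libraries held between 20382943 and 67308932 counts (median 34187430). At this depth, 3 counts, the most that a library with 0 counts allows, correspond to between 0.0429 and 0.155 counts per 1000000 counts of the library (CPM), which covers counting error only. Of 8 B cell markers, 8 had a mean of at least 1 CPM in HG3 and 7 in MEC2 and PCL12, where CD5, a surface antigen of CLL cells, stayed below that level. The summed level of 6 monocyte or macrophage markers, cells that are a common source of interleukins, was between 0.472 and 2.53 CPM over the libraries, and that of 6 T or NK cell markers between 0.440 and 5.71 CPM. Mitochondrial transcripts took 20.2% of the counts in replicate 2 of unstimulated HG3 and 19.7% in replicate 2 of CpG-stimulated MEC2, and 2.82% to 9.28% in the other 16 libraries. Replicates 2 and 3 of PCL12, stimulated and unstimulated, also held transcripts abundant in MEC2, called MEC2 transcripts here for short. Immunoglobulin genes aside, 45 genes reached 20 CPM in all MEC2 libraries but no more than 10% of the MEC2 level in PCL12 replicate 1. These genes had medians between 29.0% and 31.3% of the MEC2 level in the 4 libraries of replicates 2 and 3. Their medians of 2.26% and 2.36% in replicate 1 are fixed low by that choice, so that MEC2 transcripts in replicate 1 were not tested. The choice also partly fixes that replicates 2 and 3 stand higher than replicate 1. Whether the MEC2 transcripts come from MEC2 cells was not tested. The part of this in the results was not tested either, and PCL12 values are also given without replicates 2 and 3, which leaves 1 PCL12 library in each group, whose spread is then assumed to be that of the other groups.

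TLR9 is an endosomal receptor for unmethylated CpG DNA that signals through MYD88 to NF-κB and MAP kinases, and in B cells this route leads to transcription of cytokine genes. IL6 is a growth and differentiation factor that acts through gp130, IL10 is an anti-inflammatory cytokine of regulatory B cells, and IL1B is the precursor of the inflammatory cytokine interleukin-1β. EBI3 and IL12A encode the chains of the heterodimer interleukin-35, and IL12A is also the smaller chain of interleukin-12, while EBI3 pairs with IL27 in interleukin-27. IL15 supports T and NK cells, IL16 is a CD4 ligand cut from a larger cytoplasmic precursor, and IL32 is an inflammatory cytokine found mostly inside cells.

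The genes lie on different chromosomes. In GENCODE release 44 on GRCh38, IL6 spans chr7:22725884-22732002 and IL10 spans chr1:206767602-206774541 on the minus strand. EBI3 spans chr19:4229523-4237528, IL12A chr3:159988835-159996019 and IL15 chr4:141636583-141733987. IL16 spans chr15:81159575-81314058, IL32 chr16:3065297-3082192 and IL1B chr2:112829751-112836816, the last on the minus strand. IL12A overlaps the antisense gene IL12A-AS1, which had 0 to 25 counts per library, and IL6 overlaps IL6-AS1, not analysed here, and the study's methods name a stranded reverse library, while whether the counting used strand is not given in the sources used here.

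The 250 bases before each transcription start in RefSeq (GRCh38.p14) were searched on both strands for the NF-κB consensus, for the AP-1 element TGANTCA and for the cAMP response element TGACGTCA. An entry was found for 7 of the 8 genes, all but IL15, and an NF-κB match for 4 of them. Over all 35116 promoters of this length, 9.96% held an NF-κB match, 6.57% an AP-1 match and 1.65% a cAMP response element. These shares are per entry, whereas IL10, IL16 and IL32 had several entries and counted as a match if any of them matched. The 4 stretches below are shown because NF-κB is the factor at the end of the TLR9 pathway, with the match in capitals and 10 bases before it.
IL6, chr7:22727117-22727146, plus strand: tatcaaatgtGGGATTTTCCcatgagtctc
EBI3, chr19:4229299-4229328, plus strand: ccccaccctcGGGGCCTTCCgagcaggggt
IL12A, chr3:159988781-159988810, plus strand: ggtggtgggcGGGGTGTCCCgcccgcctgt
IL32, chr16:3065294-3065323, plus strand: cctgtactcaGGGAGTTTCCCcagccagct
The matches began 73 bases before the start in IL6, 214 in EBI3, 44 in IL12A and 99 in IL32, where a second match overlapped the first on the other strand. The IL32 stretch overlaps annotated exons of the gene, and the other 3 lie outside the exons of theirs. A match is a run of letters and was not tested for binding in these cells.

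The whole window of EBI3, whose MEC2 groups did not overlap, is also shown, with the NF-κB match and the AP-1 match in capitals. It is the plus strand of chr19:4229273-4229522, upstream of the first exon.
EBI3 promoter: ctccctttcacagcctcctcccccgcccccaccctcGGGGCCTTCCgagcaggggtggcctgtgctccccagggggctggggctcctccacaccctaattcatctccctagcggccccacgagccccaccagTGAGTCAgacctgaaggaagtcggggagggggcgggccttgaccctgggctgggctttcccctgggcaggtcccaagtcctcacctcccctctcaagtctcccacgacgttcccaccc
The AP-1 match began 118 bases before the start. One of the 3 IL10 entries also held an AP-1 match, 69 bases before its start, and an IL32 entry held the cAMP response element 121 bases before its start.

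The first question was whether 4 h of TLR9 stimulation changed the interleukin transcripts. A differentially expressed gene (DEG) had a nominal P value under 0.01 and a Log2FC of at least 1 in either direction. This is the study's definition, applied there with limma and here with edgeR's quasi-likelihood test. None of the 8 genes met this definition in any line: the count was 0 of 8 in HG3, 0 of 8 in MEC2 and 0 of 8 in PCL12, where 0.496%, 0.251% and 0.116% of all genes tested did. The adjusted p of every one of them (Benjamini-Hochberg over all genes in edgeR) was 1, and of all genes 0.00314%, 0.00314% and 0.0% had an adjusted p under 0.05 in HG3, MEC2 and PCL12. At a nominal P value under 0.05, the counts were 0 genes in HG3, 2 in MEC2 (IL6 and EBI3) and 1 in PCL12 (IL6), where 3.73%, 2.46% and 2.09% of all genes tested had such a value. With limma-voom in place of edgeR, IL6 met the DEG definition in PCL12 (nominal P 0.00298), and DESeq2 and limma on log2 CPM gave 0 genes in each line. Groups of stimulated and unstimulated libraries did not overlap for 0 of the 8 genes in HG3, 1 in MEC2 (EBI3) and 1 in PCL12 (IL6), and for 3.72%, 4.72% and 4.55% of all genes tested.

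IL6 was close to the detection limit in all lines, with 85 reads in all and 0 reads in 8 of the 18 libraries. In HG3, the CpG-stimulated libraries held 22, 5 and 7 reads and the unstimulated libraries 11, 0 and 4. In MEC2, stimulated cells gave 4, 6 and 0 reads and unstimulated cells 0, 0 and 0. In PCL12, stimulated cells gave 22, 1 and 3 reads and unstimulated cells again 0, 0 and 0. IL6 reads were therefore present without stimulation in HG3 alone, where the groups overlapped, whereas in PCL12 each stimulated library held at least 1 read and no unstimulated library did. The study's real-time PCR went the other way, with more IL6 mRNA in unstimulated PCL12 and MEC2 than in its other lines. The deepest library of the series, stimulated PCL12 replicate 1 with 67308932 counts, gave 22 of the 26 PCL12 reads.

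On the CPM scale, IL6 in HG3 had a mean of 0.316 ± 0.228 CPM (SD, n = 3) with CpG against 0.116 ± 0.121 CPM without it, a ratio of 2.73 that did not exceed the spread between libraries (edgeR Log2FC 1.37 with SE 1.63, nominal P 0.407). The Log2FC was 0.62 without stimulated HG3 replicate 1 and 2.44 without unstimulated HG3 replicate 1. The stimulated PCL12 libraries had a mean of 0.145 ± 0.148 CPM (SD, n = 3), at least 1.59-fold above the level that 3 counts per unstimulated library allow (exact permutation p = 0.1, two-sided, the smallest that 3 against 3 libraries can give). In edgeR, the nominal P value of IL6 in PCL12 was 0.0157, with an adjusted p of 1, and it lay between 0.0150 and 0.0594 when 1 library at a time was left out, the highest value without stimulated PCL12 replicate 1. The bound also rested on that library: the other stimulated PCL12 libraries had a mean of 0.0598 CPM, below the 0.0909 CPM that 3 counts per unstimulated library allow. Without PCL12 replicates 2 and 3, 22 reads against 0 were left and the P value was 0.116 with 1 library on each side. In MEC2, the stimulated mean of 0.0887 CPM was below the level that 3 counts per library allow, so no fold was formed (edgeR nominal P 0.0316, adjusted p 1, exact permutation p = 0.4), and the P value was 0.0223 to 0.0742 with 1 library left out, above 0.05 without stimulated replicate 1 or 2 or without any 1 of the unstimulated MEC2 libraries. It was also above 0.05 in DESeq2 (0.0769), with limma on log2 CPM (0.12), in edgeR with MEC2 fitted alone (0.075) and without both libraries rich in mitochondrial transcripts (0.0565). With the replicate number as a block, the nominal P value in edgeR was 0.133 in MEC2 and 0.0701 in PCL12.

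**Figure D1:**
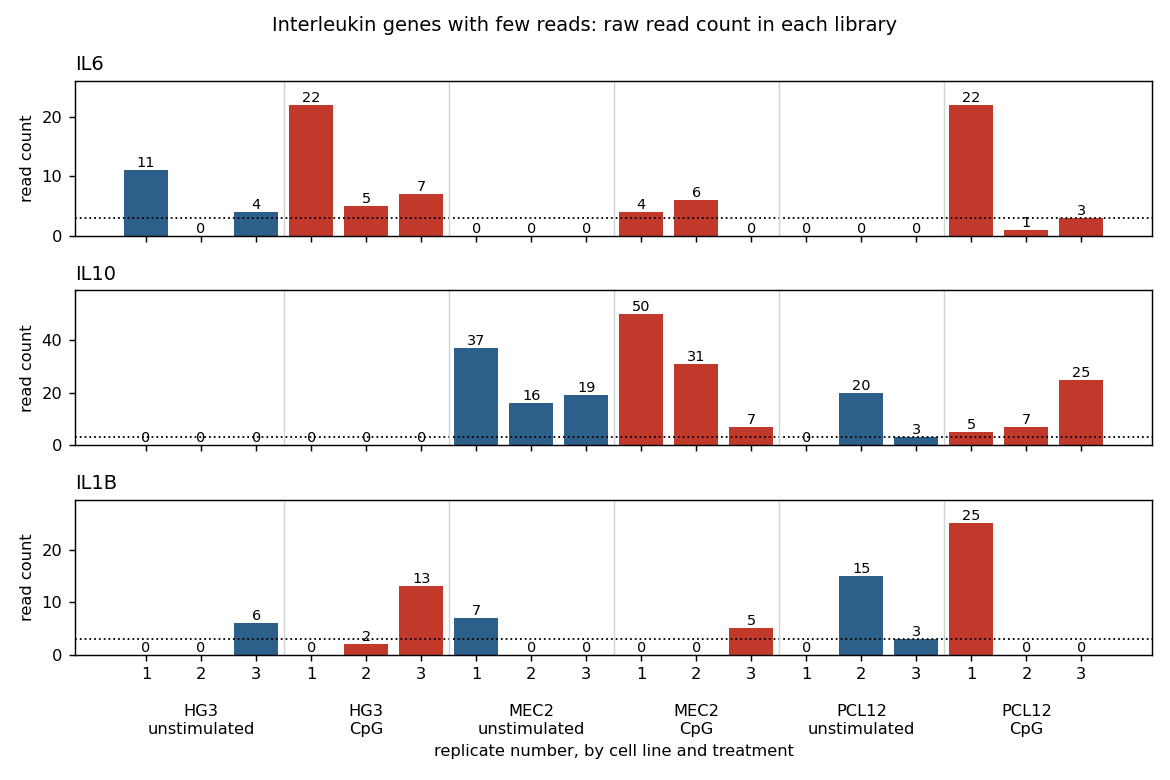
Reads counted on IL6, IL10 and IL1B in each of the 18 libraries, by cell line, for unstimulated and CpG-stimulated cells. IL6 had 0 reads in every unstimulated MEC2 and PCL12 library, IL10 had 0 reads in all HG3 libraries, and the 3-count line marks the most that a library at 0 allows.

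IL10 was absent from the HG3 counts and present in the other lines, with 220 reads in all. HG3 gave 0 reads in each of its 6 libraries, which allows up to 0.155 CPM in the shallowest of them. MEC2 gave 50, 31 and 7 reads after CpG and 37, 16 and 19 without it. PCL12 gave 5, 7 and 25 reads after CpG and 0, 20 and 3 without it. All 6 MEC2 libraries thus carried IL10 reads, the stimulated and unstimulated ranges overlapped in MEC2 and in PCL12, and PCL12 varied from 0 upward within 1 group.

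Stimulation left IL10 within the spread between libraries. MEC2 had 0.861 ± 0.574 CPM (SD, n = 3) with CpG against 0.752 ± 0.273 CPM without it (edgeR Log2FC 0.20, SE 1.26, nominal P 0.875). PCL12 had 0.337 ± 0.283 CPM with CpG against 0.261 ± 0.393 CPM without it (Log2FC 0.37, SE 1.29, nominal P 0.775), and without replicates 2 and 3 there were 5 reads after and 0 before (nominal P 0.181). No fold was formed in HG3, where both groups were at 0, so that IL10 could not be called there.

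IL1B reads were scattered over the libraries without following the groups, with 76 reads in all and 0 reads in 10 of 18 libraries. HG3 gave 0, 2 and 13 reads after CpG and 0, 0 and 6 before, MEC2 gave 0, 0 and 5 after and 7, 0 and 0 before, and PCL12 gave 25, 0 and 0 after and 0, 15 and 3 before. In each line the groups overlapped, and a single library held most of the stimulated reads. The edgeR nominal P values were between 0.508 and 0.954 over the 3 lines, so that no difference in IL1B exceeded the spread between libraries.

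EBI3 was the member with many reads whose stimulated and unstimulated MEC2 libraries did not overlap. In MEC2, its level was 148, 152 and 107 CPM after CpG and 83.1, 78.0 and 83.3 CPM before. In PCL12, it was 156, 194 and 86.5 CPM after CpG and 95.8, 144 and 64.7 CPM before. In HG3, it was 138, 168 and 219 CPM after CpG and 135, 258 and 230 CPM before. Every stimulated MEC2 library was above every unstimulated one, the PCL12 groups overlapped although each stimulated library was above the unstimulated library with its number, and the HG3 groups overlapped with no common direction.

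The MEC2 means were 135 ± 24.9 CPM (SD, n = 3) after CpG and 81.4 ± 3.01 CPM before, a ratio of 1.66 (edgeR Log2FC 0.73, SE 0.31, 95% confidence interval 0.06 to 1.40). The nominal P value was 0.0245 and the adjusted p was 1, and the exact permutation p was 0.1, the smallest this design can give. Leaving out 1 library at a time gave Log2FC values of 0.65 to 0.88 and nominal P values of 0.0135 to 0.0650, above 0.05 without replicate 1 or 2 of either MEC2 group. Without both libraries rich in mitochondrial transcripts, the Log2FC was 0.64 and the P value 0.0789. With the replicate number as a block, EBI3 in MEC2 had a Log2FC of 0.72 (SE 0.21), with P 0.000487 (nominal) and 0.108 (adjusted) in edgeR.

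In PCL12 the means of EBI3 were 145 ± 54.4 CPM (SD, n = 3) after CpG and 101 ± 39.9 CPM before (edgeR Log2FC 0.52, SE 0.31, nominal P 0.101), and within replicates 1, 2 and 3 the log2 ratios were 0.70, 0.43 and 0.42. In MEC2 these ratios were 0.83, 0.96 and 0.36, so that EBI3 was higher after CpG in 3 of 3 replicates of either line. In HG3 they were 0.04, -0.62 and -0.07, with means of 175 ± 40.9 CPM after CpG and 208 ± 64.9 CPM before (edgeR Log2FC -0.24, SE 0.31, nominal P 0.430). With the replicate block, the edgeR nominal P value in PCL12 was 0.0112 with an adjusted p of 1. With 1 PCL12 library left out, the Log2FC ran from 0.26 (nominal P 0.447, without stimulated replicate 2) to 0.86 (nominal P 0.0157, without unstimulated replicate 2) in edgeR. It was 0.27 without unstimulated replicate 3 and 0.79 without stimulated replicate 3 (nominal P 0.0172). Without PCL12 replicates 2 and 3, it was 0.71 (nominal P 0.160).

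The CpG effects were then compared between the lines themselves. No gene of the 8 met the DEG definition for a difference of effect between MEC2 and HG3, between PCL12 and HG3 or between MEC2 and PCL12, as did 0.543%, 0.489% and 0.286% of all genes. At a nominal P value under 0.05, the counts were 1, 0 and 0 in edgeR, the 1 being EBI3 in MEC2 against HG3, where 4.1%, 4.16% and 3.23% of all genes had such a value. Its effect was higher in MEC2 than in HG3 by 0.98 on the log2 scale (SE 0.43, nominal P 0.0324, adjusted p 1 in edgeR). Without both libraries rich in mitochondrial transcripts, of which 1 is the unstimulated HG3 library with the highest EBI3 level, this difference was 0.70 with a P value of 0.169, and with 1 library left out the P value rose above 0.05 in 8 of the 12 cases within these lines. The nominal P value was also above 0.05 with limma-voom (0.0502), limma on log2 CPM (0.0505) and library totals in edgeR (0.0591), and with the replicate block the difference was 0.93 (SE 0.29, nominal P 0.00128 and adjusted p 0.300 in edgeR). The difference between PCL12 and HG3 was 0.76 (SE 0.43, nominal P 0.0885, and 0.0110 with the replicate block), and that between MEC2 and PCL12 was 0.21 (SE 0.43, nominal P 0.626).

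**Figure D2:**
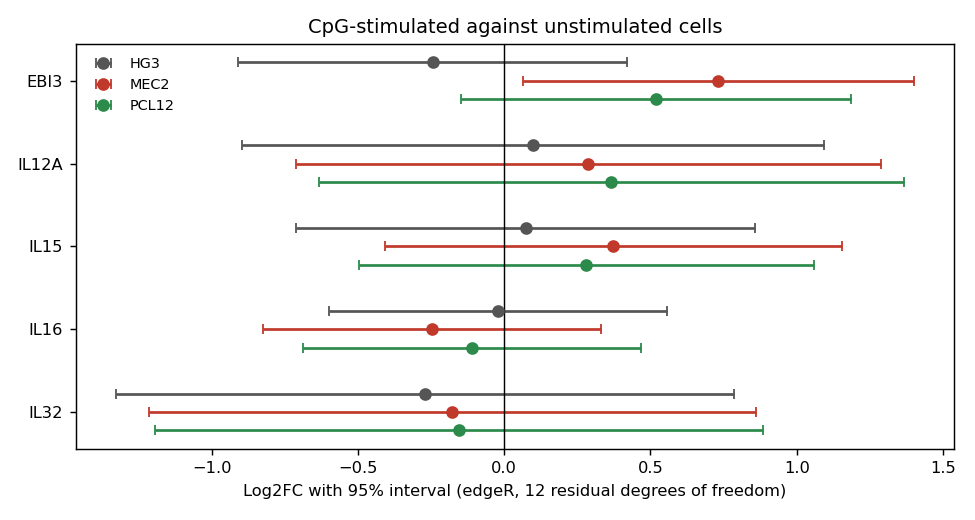
Log2FC of CpG-stimulated against unstimulated cells by cell line, for EBI3, IL12A, IL15, IL16 and IL32, with 95% confidence intervals as bars. The EBI3 interval in MEC2 runs from 0.06 to 1.40 and the interval of EBI3 in HG3 from -0.91 to 0.42.

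IL12A, the partner chain of EBI3 in interleukin-35, was measured at a few CPM in every library. It stood at 11.2, 6.26 and 5.36 CPM after CpG and 9.69, 4.38 and 7.21 CPM before in HG3. MEC2 gave 6.24, 8.94 and 7.43 CPM after and 5.01, 3.88 and 9.60 CPM before, and in PCL12 they were 5.91, 5.55 and 7.39 CPM after and 2.21, 4.42 and 7.96 CPM before. The ranges overlapped in all lines, and replicate 3 was lower after CpG than before in each line. In edgeR the Log2FC was 0.10 in HG3, 0.29 in MEC2 and 0.37 in PCL12, each with an SE of 0.46, and the nominal P values were between 0.432 and 0.831. With 1 library left out, the Log2FC ran from 0.04 to 0.76 in MEC2, lowest without unstimulated replicate 2 and highest without unstimulated replicate 3. In PCL12 it ran from 0.03, without unstimulated replicate 1, to 0.91, without unstimulated replicate 3, and it was 1.42 (nominal P 0.0981) without replicates 2 and 3.

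IL15 did not differ between stimulated and unstimulated cells beyond the spread in any line. In HG3 it was 6.83, 6.53 and 8.17 CPM after CpG and 6.75, 6.91 and 6.79 CPM before, in MEC2 11.03, 15.2 and 6.50 CPM after and 10.7, 5.63 and 8.95 CPM before, and in PCL12 17.9, 20.3 and 9.77 CPM after and 12.2, 16.1 and 11.1 CPM before. HG3 kept the narrowest range of the lines. The edgeR Log2FC was 0.07, 0.37 and 0.28 in the same order (SE 0.36 each, nominal P 0.308 to 0.838), and 0.55 in PCL12 without replicates 2 and 3 (nominal P 0.418). In MEC2 it was 0.061 without stimulated replicate 2, 0.057 without both libraries rich in mitochondrial transcripts and 0.64 without stimulated replicate 3. In PCL12 it ran from 0.073, without stimulated replicate 2, to 0.54, without stimulated replicate 3.

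IL16 and IL32 likewise had overlapping stimulated and unstimulated libraries in each line. For IL16 the edgeR Log2FC was -0.02 in HG3, -0.25 in MEC2 and -0.11 in PCL12 (SE 0.27, 0.27 and 0.26), with intervals within -0.83 and 0.56. For IL32 it was -0.27, -0.18 and -0.15 (SE 0.49, 0.48 and 0.48), with intervals within -1.33 and 0.88. The lowest nominal P value in edgeR was 0.359, and 4 of these 6 values changed sign under an alternative: IL16 in HG3 was 0.039 with library totals, IL32 in MEC2 0.028 without both libraries rich in mitochondrial transcripts, and without unstimulated PCL12 replicate 1 the PCL12 values were 0.23 for IL16 and 0.57 for IL32. Without PCL12 replicates 2 and 3, the PCL12 values were -0.16 for IL16 and -0.32 for IL32.

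**Figure D3:**
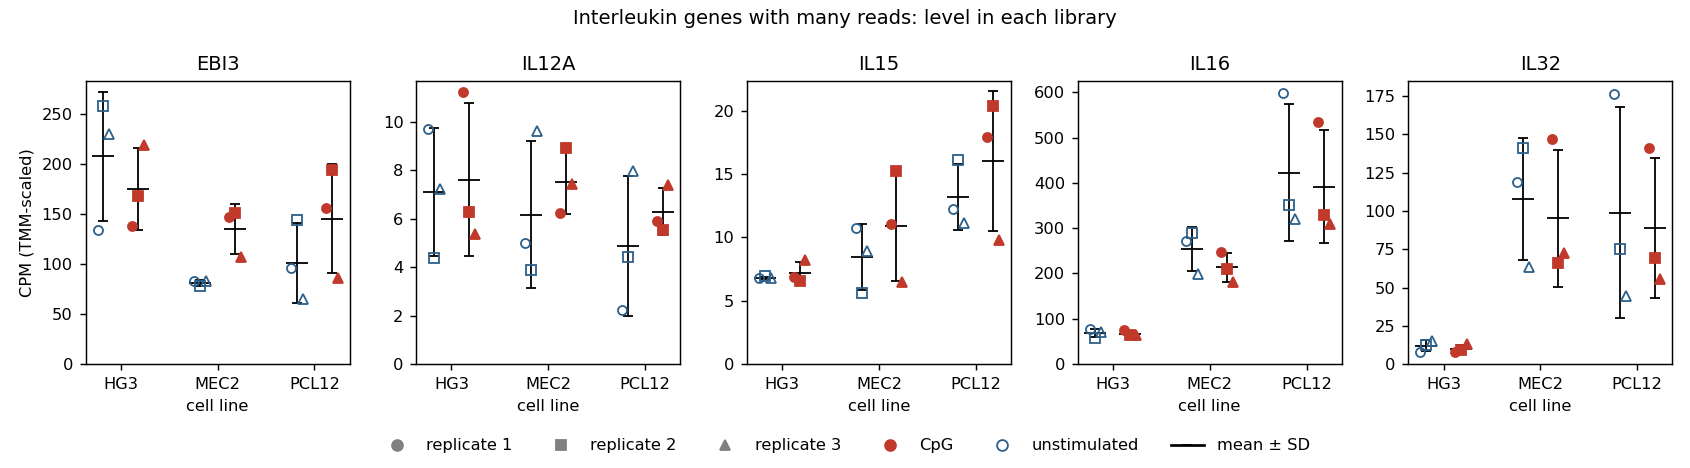
Levels in CPM of EBI3, IL12A, IL15, IL16 and IL32 in each of the 18 libraries, by cell line, for unstimulated and CpG-stimulated cells, replicates as symbols and lines for the mean ± SD. The IL16 and IL32 libraries of HG3 lie below all MEC2 and PCL12 libraries, while EBI3 is highest in unstimulated HG3, between 135 and 258 CPM.

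The second question was how the lines differed before stimulation, judged by an adjusted p under 0.05 in edgeR. Against HG3, 4 of the 8 genes were called in MEC2 (IL10, IL16 and IL32 higher, EBI3 lower) and 4 of 8 in PCL12 (the same 4 genes in the same directions), where 9.78% and 9.44% of all genes tested were called in either direction. By direction, 3 of 8 were higher (4.81% and 4.87% of all genes) and 1 of 8 lower (4.97% and 4.57%). Between MEC2 and PCL12, 0 of 8 genes were called, against 2.05% of all genes. In that comparison, edgeR gave 1 of the 8 a nominal P value under 0.05 (IL16). DESeq2 and limma-voom called 0 of the 8 at the adjusted threshold, and 4.43% and 3.1% of all genes. The replicate block called 1 of the 8 (IL16), and 8.04% of all genes. Both comparisons with HG3 use the same HG3 libraries.

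IL16 showed the clearest separation of the lines. In unstimulated cells it was 76.8, 58.1 and 69.8 CPM in HG3, 271, 290 and 199 CPM in MEC2, and 598, 350 and 321 CPM in PCL12. The 3 ranges did not overlap, with HG3 lowest and PCL12 highest. IL16 was higher than in HG3 by 1.89 on the log2 scale in MEC2 (SE 0.27, adjusted p 2.21e-05) and by 2.63 in PCL12 (SE 0.28, adjusted p 2.82e-07) in edgeR, which are ratios of the means of 3.71 and 6.20. MEC2 against PCL12 gave a Log2FC of -0.74 (SE 0.27, nominal P 0.0101, adjusted p 0.214), and the replicate block gave -0.70 with an adjusted p of 0.0117. Without unstimulated PCL12 replicate 1 the Log2FC was -0.40 (nominal P 0.160), and without unstimulated MEC2 replicate 3 it was -0.59 (nominal P 0.0595) in edgeR.

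After stimulation, IL16 kept this order, with 74.5, 63.3 and 64.0 CPM in HG3, 247, 211 and 182 CPM in MEC2 and 535, 330 and 310 CPM in PCL12. The stimulated means were 3.17 times and 5.82 times the HG3 mean in MEC2 and PCL12.

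IL32 was low in HG3 and several times higher in the other lines. Unstimulated HG3 had 7.93, 12.7 and 15.3 CPM, MEC2 119, 141 and 63.4 CPM, and PCL12 176, 75.3 and 44.6 CPM. Every HG3 library was below every library of the other lines, and the MEC2 and PCL12 ranges overlapped. The edgeR Log2FC against HG3 was 3.17 in MEC2 (SE 0.52, adjusted p 0.000451) and 3.05 in PCL12 (SE 0.52, adjusted p 0.000633), and MEC2 and PCL12 differed by 0.12 (SE 0.48, nominal P 0.797). The PCL12 value against HG3 was 2.33 without unstimulated PCL12 replicate 1, still past the adjusted threshold. After CpG, the libraries held 7.77, 8.95 and 13.03 CPM in HG3, 147, 66.3 and 72.6 CPM in MEC2 and 141, 69.6 and 55.6 CPM in PCL12.

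Within PCL12, replicate 1 was highest for both genes, and replicates 2 and 3 are those that held MEC2 transcripts. Unstimulated PCL12 IL16 was 236%, 138% and 127% of the MEC2 mean in replicates 1, 2 and 3, and IL32 was 164%, 69.9% and 41.4%. After CpG the same order gave 251%, 154% and 145% for IL16 and 148%, 73.1% and 58.4% for IL32. The lower values of IL32 were thus below the MEC2 level, which replicate 1 exceeded. Without replicates 2 and 3 of PCL12, the IL16 difference between PCL12 and HG3 was 3.15 on the log2 scale and the IL32 difference 3.90, and between MEC2 and PCL12 the Log2FC was -0.74 for IL32, in place of 0.12, and -1.27 for IL16 (adjusted p 0.0581). The part of the MEC2 transcripts in these values was not tested.

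EBI3 ran the other way, highest in unstimulated HG3. The libraries listed above gave a mean of 208 ± 64.9 CPM (SD, n = 3) in HG3, 81.4 ± 3.01 CPM in MEC2 and 101 ± 39.9 CPM in PCL12. MEC2 was below HG3 in every library, while 1 PCL12 library at 144 CPM lay above the lowest HG3 library at 135 CPM. The edgeR Log2FC against HG3 was -1.35 in MEC2 (SE 0.31, adjusted p 0.00416) and -1.03 in PCL12 (SE 0.31, adjusted p 0.0312). The PCL12 call was lost with library totals in place of TMM factors (Log2FC -0.85, adjusted p 0.0853) and with PCL12 and HG3 fitted alone (Log2FC -1.01, adjusted p 0.0595) in edgeR. It was also lost with a Log2FC of -0.85 and an adjusted p of 0.152 without both libraries rich in mitochondrial transcripts, with a Log2FC of -1.10 and an adjusted p of 0.191 without PCL12 replicates 2 and 3, where 1 PCL12 library was left, and from 0.0875 to 0.188 without unstimulated HG3 replicate 2 or 3 or unstimulated PCL12 replicate 1 or 3. After CpG, the EBI3 ranges of the 3 lines overlapped, with means of 175 CPM in HG3, 135 CPM in MEC2 and 145 CPM in PCL12 (exact permutation p = 0.3 for MEC2 against HG3 and 0.5 for PCL12 against HG3).

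IL10 was called higher than in HG3 in both lines, on few reads. Unstimulated MEC2, with 37, 16 and 19 reads, was at least 7.53-fold above the level that 3 counts per HG3 library allow (edgeR adjusted p 0.0122, exact permutation p = 0.1). Unstimulated PCL12, with 0, 20 and 3 reads, was at least 2.61-fold above it (edgeR adjusted p 0.0467, exact permutation p = 0.4). The PCL12 call was lost without unstimulated PCL12 replicate 2 (adjusted p 0.323), without any 1 of the unstimulated HG3 libraries (0.0822 to 0.122), without stimulated PCL12 replicate 2 (0.0534), with the replicate block (0.112), with PCL12 and HG3 fitted alone (0.121) and without both libraries rich in mitochondrial transcripts (0.0965) in edgeR. By limma-voom the adjusted p was 0.143 and by limma on log2 CPM 0.284. Between unstimulated MEC2 and PCL12, IL10 had a Log2FC of 1.54 (SE 1.31, nominal P 0.252, adjusted p 0.723 in edgeR). It was 4.23 (nominal P 0.0187) without unstimulated PCL12 replicate 2, 0.95 without unstimulated PCL12 replicate 1 and 1.06 without unstimulated PCL12 replicate 3, and the nominal P value was 0.0255 without PCL12 replicates 2 and 3, where PCL12 was at 0 reads. By limma-voom it was 0.0136 and by limma on log2 CPM 0.0234, and the adjusted p was above 0.05 in each of these. The bound, too, rested on unstimulated PCL12 replicate 2, without which the mean was 0.0348 CPM, below the 0.0999 CPM that 3 counts per HG3 library allow. The MEC2 bound was at least 5.98-fold with 1 MEC2 library left out. In PCL12 replicate 1, IL10 had 0 reads before and 5 reads after CpG, and with that replicate alone no read was left in either unstimulated group. As a percentage of the MEC2 mean, IL10 in PCL12 replicates 1, 2 and 3 was 0%, 94.9% and 9.27% before CpG and 8.31%, 35.2% and 73.7% after it. Whether IL10 reads in PCL12 share the origin of the MEC2 transcripts was not tested.

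**Figure D4:**
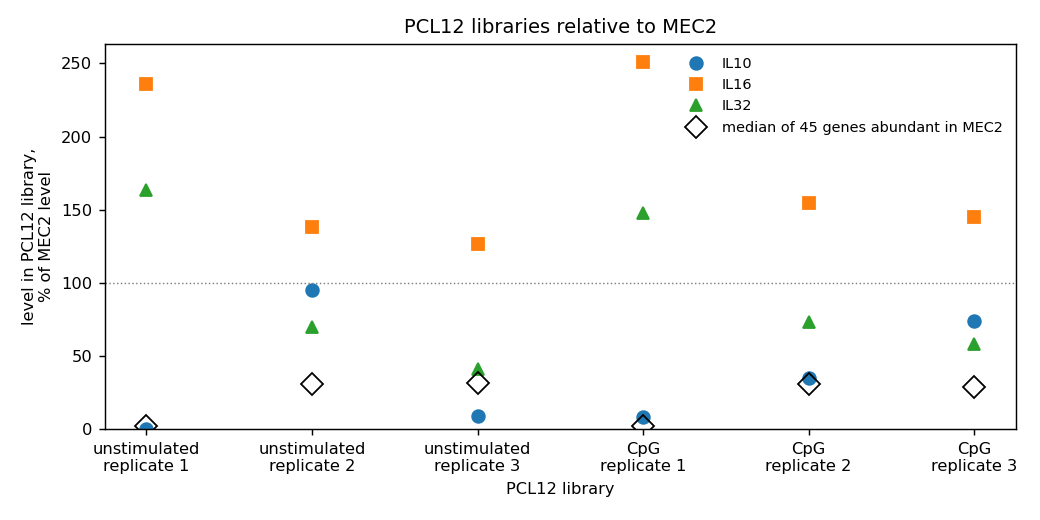
Level of IL10, IL16 and IL32 in each PCL12 library as a percentage of the MEC2 mean of the same treatment (vertical axis, dotted line at 100%), with the median of 45 genes abundant in MEC2 as open diamonds. The diamonds stand at 2.26% and 2.36% in replicate 1, which was used to choose these genes, and between 29.0% and 31.3% in replicates 2 and 3, while IL16 is above 100% in every library and IL10 runs from 0% to 94.9%.

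IL15 did not pass the adjusted threshold between lines, although the PCL12 libraries stood apart. All unstimulated PCL12 libraries, from 11.1 to 16.1 CPM, lay above those of HG3, from 6.75 to 6.91 CPM, and of MEC2, from 5.63 to 10.7 CPM. The edgeR Log2FC of PCL12 against HG3 was 0.95 (SE 0.36, nominal P 0.0144, adjusted p 0.108), and it passed with the replicate block (adjusted p 0.0175), with DESeq2 (0.0431) and with library totals in place of TMM factors (0.0469). MEC2 against PCL12 gave -0.64 (SE 0.36, nominal P 0.0865). Without PCL12 replicates 2 and 3, these values were 0.86 (adjusted p 0.537) and -0.57 (nominal P 0.294).

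IL12A passed the adjusted threshold in no comparison of unstimulated lines, with an edgeR Log2FC against HG3 of -0.20 in MEC2 and -0.55 in PCL12 (SE 0.46 each). The PCL12 value was -1.08 without unstimulated PCL12 replicate 3 (nominal P 0.0427, adjusted p 0.250) and -1.67 without replicates 2 and 3 (nominal P 0.0325, adjusted p 0.293). It was -0.20 without unstimulated PCL12 replicate 1 and -0.24 without unstimulated HG3 replicate 1. MEC2 against PCL12 gave an edgeR Log2FC of 0.34 for IL12A, and 1.46 without PCL12 replicates 2 and 3.

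IL6 without stimulation stood at 0 reads in the 6 libraries of MEC2 and PCL12 and at 11, 0 and 4 reads in HG3, so that HG3 replicate 2 shared the value of the other lines. Against the level that 3 counts per library allow, MEC2 was at least 1.18-fold lower and PCL12 at least 1.27-fold lower than HG3, which did not pass the test (edgeR adjusted p 0.145 and 0.138, exact permutation p = 0.4 for each). Both bounds rested on HG3 replicate 1, without which the HG3 mean was 0.0526 CPM, below what 3 counts per MEC2 or PCL12 library allow. Counted over the 8 genes, libraries of unstimulated cells did not overlap for 4 genes between MEC2 and HG3 (22.2% of all genes), for 3 between PCL12 and HG3 (21.1%) and for 2 between MEC2 and PCL12 (17.3%).

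**Figure D5:**
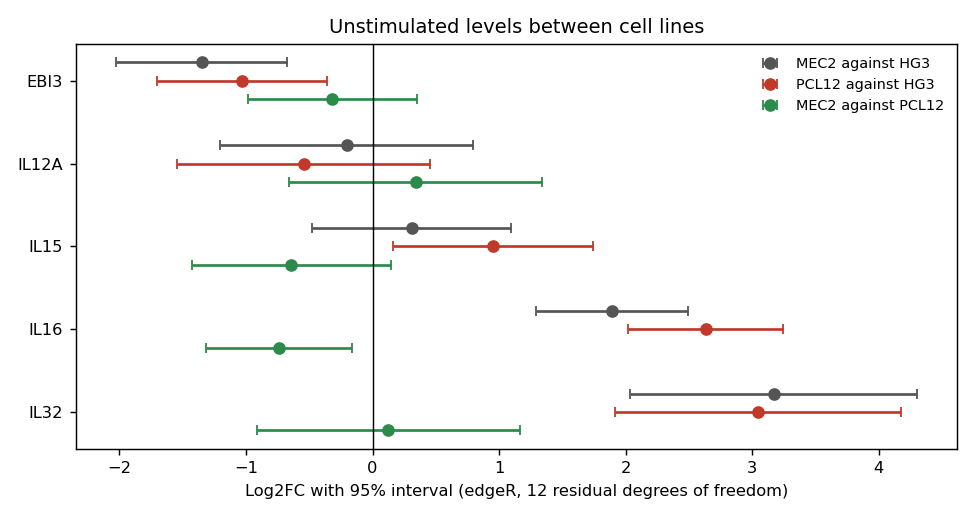
Log2FC between unstimulated cells of the lines for the same 5 genes, with 95% confidence intervals as bars. IL16 and IL32 lie above 0 and EBI3 below 0 against HG3 in MEC2 and in PCL12, and the MEC2 against PCL12 values lie between -0.74 and 0.34.

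The other genes around these cytokines were described by lists chosen with earlier results of these data known. Of 35 other interleukin genes, 25 had enough reads to be tested, and 0 met the DEG definition in HG3, MEC2 or PCL12, with 0 at a nominal P value under 0.05 in edgeR. Before stimulation, 1 of the 25 was higher and 1 lower than in HG3 at an adjusted p under 0.05 in MEC2, and the same counts were found in PCL12, where 4.81% of all genes were higher and 4.97% lower in MEC2, and 4.87% and 4.57% in PCL12. Of 15 receptor chains for the members, 0 met the DEG definition after CpG in any line and 0 had a nominal P value under 0.05, while 3 were higher and 7 lower in unstimulated MEC2 than in HG3, and 3 higher and 5 lower in PCL12, to be set against the same shares of all genes. Of 9 processing enzymes, which cut cytokine precursors, 0 met the DEG definition after CpG and 0 had a nominal P value under 0.05, while 2 were higher and 1 lower than in HG3 in unstimulated MEC2 and likewise in PCL12. For these 3 lists, the shares of all genes after CpG in HG3, MEC2 and PCL12 were 0.496%, 0.251% and 0.116% for the DEG definition and 3.73%, 2.46% and 2.09% for a nominal P value under 0.05.

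Of 18 regulators of IL6 and IL10 transcription and mRNA, 0 met the DEG definition in HG3, 3 in MEC2 and 2 in PCL12, all higher after CpG, where 0.496%, 0.251% and 0.116% of all genes met it in either direction. These were NFKBIZ, a nuclear IκB protein that cooperates with NF-κB at cytokine genes, ZC3H12A, which encodes the RNase Regnase-1 that degrades IL6 mRNA, and in MEC2 NFKB2, the precursor of the NF-κB subunit p52. The Log2FC in MEC2 was 2.20 for NFKBIZ (SE 0.33, adjusted p 0.0154), 1.82 for ZC3H12A (SE 0.31, adjusted p 0.0587) and 1.12 for NFKB2 (SE 0.34, adjusted p 1) in edgeR. In PCL12 it was 1.71 for NFKBIZ (SE 0.33, adjusted p 0.541) and 1.43 for ZC3H12A (SE 0.31, adjusted p 1). With the replicate block, all of them passed an adjusted p of 0.05 in edgeR, as did 0.333% of all genes in MEC2 and 0.0471% in PCL12. The adjusted p was 1.39e-19 for NFKBIZ, 1.87e-12 for ZC3H12A and 0.00218 for NFKB2 in MEC2. In PCL12 it was 2.56e-11 for NFKBIZ and 6.11e-08 for ZC3H12A. These P values of the block carry no gene-specific spread. In HG3, the edgeR Log2FC without the block was 0.66 for NFKBIZ (SE 0.32, nominal P 0.0490, adjusted p 1) and 0.61 for ZC3H12A (SE 0.30, nominal P 0.0538, adjusted p 1). There the block gave a Log2FC of 0.73 for NFKBIZ (SE 0.21, nominal P 0.000367, adjusted p 0.139) and 0.64 for ZC3H12A (SE 0.21, nominal P 0.00195, adjusted p 0.373) in edgeR. Mean ZC3H12A levels were 82.8 CPM before and 127 CPM after CpG in HG3, 48.7 and 172 CPM in MEC2, and 46.4 and 125 CPM in PCL12. Mean NFKBIZ levels were 148 and 234 CPM in HG3, 28.5 and 130 CPM in MEC2, and 45.3 and 148 CPM in PCL12. Before stimulation, 0 of the 18 regulators were higher and 2 lower in MEC2 than in HG3 at an edgeR adjusted p under 0.05. Of all genes, 4.81% were higher and 4.97% lower. In PCL12, 1 regulator was higher and 1 lower than in HG3, against 4.87% and 4.57% of all genes.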

How the data were processed

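RNA was sequenced from 18 samples of HG3, MEC2 and PCL12 cells, 3 stimulated and 3 unstimulated per line. The authors deposited raw read counts per gene symbol, without normalization. The submitters' processing notes name FastQC, MultiQC, Trimmomatic, STAR, featureCounts and the build hg38, and the annotation is not given in the sources used here. The study's methods name a stranded reverse library, and the strand setting of the counting is not given. For RNA extraction the study names a Qiagen kit, whereas per the labels a Promega kit and Lexogen QuantSeq libraries were used.

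TMM factors scaled the counts, and edgeR 4.0.16 (R 4.3.3, robust quasi-likelihood) was fitted with 6 group means and 12 residual degrees of freedom, over 31872 genes with a sum of at least 10 counts. Benjamini-Hochberg adjustment ran over all of them. The SE is the Log2FC divided by the square root of the F statistic, and intervals used 12 degrees of freedom. Alternatives were DESeq2 1.42.0, limma 3.58.1 (voom and trend), a replicate block, other scalings and filters, and left-out libraries. Permutation tests used Python 3.11.15. The fits were also run on simulated counts with planted changes, and the outcome is not given here.

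The members and gene lists were chosen with earlier results of these data known. By rule, the text names all members, the 3 genes most correlated with IL6 and with IL10 by Pearson correlation, and listed genes that passed a threshold after CpG, up to 5 per comparison. Beyond this rule it names the top genes by Spearman correlation, the other interleukin genes averaging 1 CPM or more, a marker and antisense genes. The series description states that each replicate series held 1 stimulated and 1 unstimulated sample, so the numbers pair the samples. The block fit had 6 residual degrees of freedom and shrank every gene to the trend (unlimited prior degrees of freedom), so its P values use a normal reference and carry no gene-specific spread. After removal of group means, same-numbered libraries correlated at 0.0928, 0.0579 and 0.203 in HG3, at 0.0285, -0.0785 and 0.327 in MEC2 and at 0.212, 0.149 and 0.216 in PCL12. Shares of MEC2 transcripts used CPM of library totals.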

Additional observations from a re-analysis of the deposited data

How the results depend on the processing

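The 12 alternatives and the 18 libraries left out 1 at a time gave 1094 values, of which 1033 kept their direction and side of the threshold, or for counts stayed within 1.5 times. The folds of IL1B were not among them. Differences of the CpG effect other than that of EBI3, and folds between groups without reads, were also left out. A fold that passed no threshold and stayed so in the same direction counted as kept. The number of members meeting the DEG definition in PCL12 after CpG was 1 with limma-voom, by which 0.649% of all genes met it. The number called between unstimulated PCL12 and HG3 was 2 in place of 4 when the compared lines were fitted alone, without both libraries rich in mitochondrial counts, and without both PCL12 replicate pairs that held MEC2 transcripts, and 2 to 4 with 1 library left out, the 2 being reached without unstimulated HG3 replicate 2 or 3. Paired by a replicate block, the number called between MEC2 and PCL12 was 1 in place of 0, IL16 with a Log2FC of -0.70. The share of all genes called there was 8.04% in place of 2.05%. With library totals the count between PCL12 and HG3 stayed at 4 with IL15 in place of EBI3. The block also ended the IL10 call and made the IL15 call between PCL12 and HG3, and changed no other call of a member; for listed regulators it is given beside their values.

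Log2FC values near 0 changed sign. After CpG in HG3, IL12A was -0.15 without the libraries rich in mitochondrial counts (-0.29 to 0.41 with 1 library left out), IL16 was 0.039 with library totals and 0.0033 with the compared lines alone (-0.10 to 0.083), and IL15 ran from -0.029 to 0.14. In MEC2, IL32 was 0.028 without the libraries rich in mitochondrial counts (-0.63 to 0.065) and IL10 ran from -0.43 to 0.57. In PCL12, IL32 was 0.078 with limma-voom (-0.67 to 0.57), IL10 ran from -0.51 to 3.06 and IL16 from -0.41 to 0.23. The difference of the EBI3 effect between MEC2 and PCL12 ran from -0.15 to 0.46. Before stimulation, IL12A in MEC2 against HG3 ran from -0.68 to 0.10 and against PCL12 from -0.13 to 0.88, EBI3 in MEC2 against PCL12 from -0.57 to 0.025, and IL32 in MEC2 against PCL12 was -0.74 without the PCL12 pairs that held MEC2 transcripts (-0.23 to 0.85). The cause was not tested.

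The filterByExpr filter kept 7 of the members and a mean of 1 CPM kept 5, the former without IL6 and the latter without IL6, IL10 and IL1B, which have no value there. IL10 between unstimulated PCL12 and HG3 has none without the PCL12 pairs, since no read was left. IL6, IL10 and IL1B rest on 85, 220 and 76 reads in all, and their reads varied widely between libraries of 1 group. Over all genes, the DEG count after CpG was 158 in HG3 (3 to 365 over the alternatives), 80 in MEC2 (36 to 224) and 37 in PCL12 (13 to 207), for differences of effect 173, 156 and 91 (10 to 466), and the adjusted calls between unstimulated lines were 3116 for MEC2 and HG3 (2778 to 5611), 3008 for PCL12 and HG3 (1342 to 5434) and 654 for MEC2 and PCL12 (611 to 2562). With 1 library left out, the last count ran from 316 to 723 (316 without unstimulated PCL12 replicate 1, 342 and 359 without unstimulated MEC2 replicate 1 and 2), and the DEG counts after CpG from 114 to 307 in HG3 (246 and 307 without unstimulated replicate 1 and 3), from 48 to 164 in MEC2 (48 without unstimulated replicate 2, 164 without stimulated replicate 3) and from 19 to 67 in PCL12 (19 and 67 without stimulated replicate 1 and 3). For the difference of effect between MEC2 and PCL12, the count was 45 without stimulated PCL12 replicate 1, 56 without stimulated and 48 without unstimulated MEC2 replicate 2.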

Other observations

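Among the 35 other interleukin genes, IL7, CXCL8 and IL23A had a mean of at least 1 CPM over the 18 libraries, and 5 genes had 0 counts in all of them. CXCL8, the neutrophil chemokine interleukin-8, had mean levels of 3.74 CPM in unstimulated HG3, 4.00 CPM in MEC2 and 33.8 CPM in PCL12, and of 7.07, 13.2 and 54.3 CPM after CpG. IL7, a lymphoid growth factor, was at 19.3, 9.17 and 4.36 CPM before and 18.7, 8.23 and 5.86 CPM after CpG in the same order. IL23A, which encodes the p19 chain of interleukin-23, was at 3.06, 6.40 and 5.12 CPM before and 1.69, 6.40 and 5.83 CPM after. None of them had a nominal P value under 0.05 in edgeR after CpG in any line.

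The genes whose log2 CPM followed IL6 most closely over the 18 libraries, among 13991 genes that averaged 1 CPM or more, were MDFIC (Pearson correlation 0.845), UBQLN4 (0.829) and SOGA1 (0.824). By Spearman correlation they were UBQLN4 (0.851), MDFIC (0.850) and LINC01126 (0.837). For IL10 they were AC016757.1 (0.943), TYROBP (0.941) and LINC02365 (0.941), and by Spearman correlation MATK (0.954), CRTAM (0.941) and LMO2 (0.935). Mean levels of TYROBP, an adaptor of NK and myeloid cell receptors, were 4.26 CPM in unstimulated MEC2, 1.17 CPM in PCL12 and 0.00877 CPM in HG3. These correlations are descriptions over 18 libraries of 3 lines, in which the lines differ, libraries share a line and 4 PCL12 libraries held MEC2 transcripts.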
